A study of Cricetulus griseus with 20 samples.

Results

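Ribosomal proteins were described at the level of their mRNAs in differentiating preadipocytes of the Chinese hamster, with and without a day of hypoxia. The mRNAs were taken from the 10318 listed mRNAs by name: an mRNA was kept when the tables that name the genes paired it with Rpl, Rps, Mrpl or Mrps and a digit, and the Rps6k kinases, which are not ribosomal proteins, were left out. This gave 28 mRNAs among 3858 named ones, 14 for proteins of the cytosolic ribosome and 14 for proteins of the mitochondrial ribosome. The cytosolic class included RPS3A, Rps2, Rps4x, Rps7 and Rps20 of the small subunit and Rpl12, Rpl18, Rpl27, Rpl37a, Rpl22l1, Rpl7l1 and Rpl3l, which are proteins of the large subunit or their paralogs. The mitochondrial class held Mrpl4, Mrpl11, Mrpl14, Mrpl27, Mrpl40, Mrpl45, Mrpl52, Mrpl53, Mrpl55 and Mrpl58 of the large subunit and Mrps2, Mrps7, Mrps24 and Mrps27 of the small subunit. These are part of either ribosome, since names were known for only some mRNAs.

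Every cytosolic ribosome has a small subunit, which decodes the mRNA, and a large subunit, which joins the amino acids. In mammals the mRNAs of its proteins share a terminal oligopyrimidine tract and are translated under the control of the kinase mTORC1, and growing cells hold them in large amounts. Mitochondria have a ribosome of their own, whose proteins are encoded in the nucleus, made in the cytosol and imported, and which translates the few subunits of the respiratory chain encoded in mitochondrial DNA.

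Primary preadipocytes from the inguinal white adipose tissue (iWAT) of 6-week-old female hamsters, pooled over animals, were differentiated with dexamethasone, insulin and IBMX from confluence (D0). Hypoxia groups spent the 24 h before D0, D1, D3, D7 or D11 in 1% O2, and the matched normoxia groups stayed in conventional incubators under 95% air, so that there were 10 groups of 2 libraries and 20 libraries in all. D0 cells had received no differentiation cocktail. Values are TPM, an abundance corrected for transcript length and library depth, and the reads behind a gene's TPM are not known. Hypoxia minus normoxia was tested with limma on log2(TPM + 1), and an mRNA rose or fell when its Benjamini-Hochberg adjusted p over all 10318 mRNAs was under 0.05. A DE mRNA also had an absolute log2 fold change above 1. Errors of log2 fold changes are standard errors of the fit, and n is 2 libraries a group throughout. Libraries sharing a group are biological replicates in the study's words, and whether each came from a culture of its own is not stated, so p-values measure the spread between these libraries.

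The D11 libraries stood apart from the others. Of 25 named HIF targets, hypoxia raised 24 and lowered none on each of D0, D1 and D3. On D7 18 rose and 1 fell, and on D11 12 rose and 4 fell. Of all mRNAs 3.39% (D0), 7.36% (D1), 10.4% (D3), 9.97% (D7) and 63.3% (D11) rose, and 39.2% (D7) and 13.2% (D11) fell. Relative to the median of all mRNAs, the median of the targets was 1.67 (D0), 1.97 (D1), 1.94 (D3), 0.86 (D7) and -0.20 (D11). Genes got names in part through a change in these libraries, so the targets are not an unselected set. A single assembled lncRNA gene had 40231 and 62630 TPM in hypoxia and 13598 and 11938 TPM in normoxia at D11, and 38.3 to 282 TPM in the 16 earlier libraries. The listed mRNAs held 41.7% to 45.8% of all TPM at D11 and 27.9% to 37.3% before it. Taken over the 10318 mRNAs, the median effect of hypoxia on the log2 scale was -0.05 (D0), -0.09 (D1), -0.07 (D3), -0.19 (D7) and 0.51 (D11). Relative values below have this median subtracted. The D11 labels were used as given. The 8 named adipocyte markers of 12 summed to 576 to 596 TPM in normoxia at D7 and to 167 to 169.9 TPM in normoxia at D0, no macrophage marker of 7 had a name, and the single named endothelial marker of 6, Pecam1, stayed under 10 TPM in every library.

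The 2 classes differed widely in level. Over the 20 libraries the mean TPM of a cytosolic mRNA ran between 0.483 and 1796, with a median of 442, and 7 of 14 were among the 100 most abundant listed mRNAs. Mitochondrial mRNAs ran between 7.18 and 96.5 TPM, with a median of 35.8, and none of 14 was among those 100. Rpl37a, a small zinc-binding protein of the large subunit, was the highest at 1796 TPM and the 7th of all listed mRNAs, followed by Rps4x at 1066 and RPS3A at 914 TPM, both of the small subunit. The lowest cytosolic means were those of Rpl7l1, a paralog of Rpl7, at 43.2 TPM and of Rpl3l, the striated-muscle paralog of Rpl3, at 0.483 TPM. Rpl3l was above 1 TPM in both libraries of only 1 group, hypoxia at D11, so it is in the table through the group where it was highest, and the other 27 mRNAs were above 1 TPM in all 20 libraries. Among mitochondrial mRNAs the highest means were those of Mrpl52 at 96.5 TPM, Mrpl55 at 69.5 TPM and Mrpl14 at 62.3 TPM, all of the large subunit. The lowest were those of the small-subunit proteins Mrps27 at 8.71 TPM and Mrps2 at 7.18 TPM. Ribosomal protein genes have near-identical copies in mammalian genomes, and reads from such copies could have been split or added in these TPM, so each level is uncertain to that extent.

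**Figure D1:**
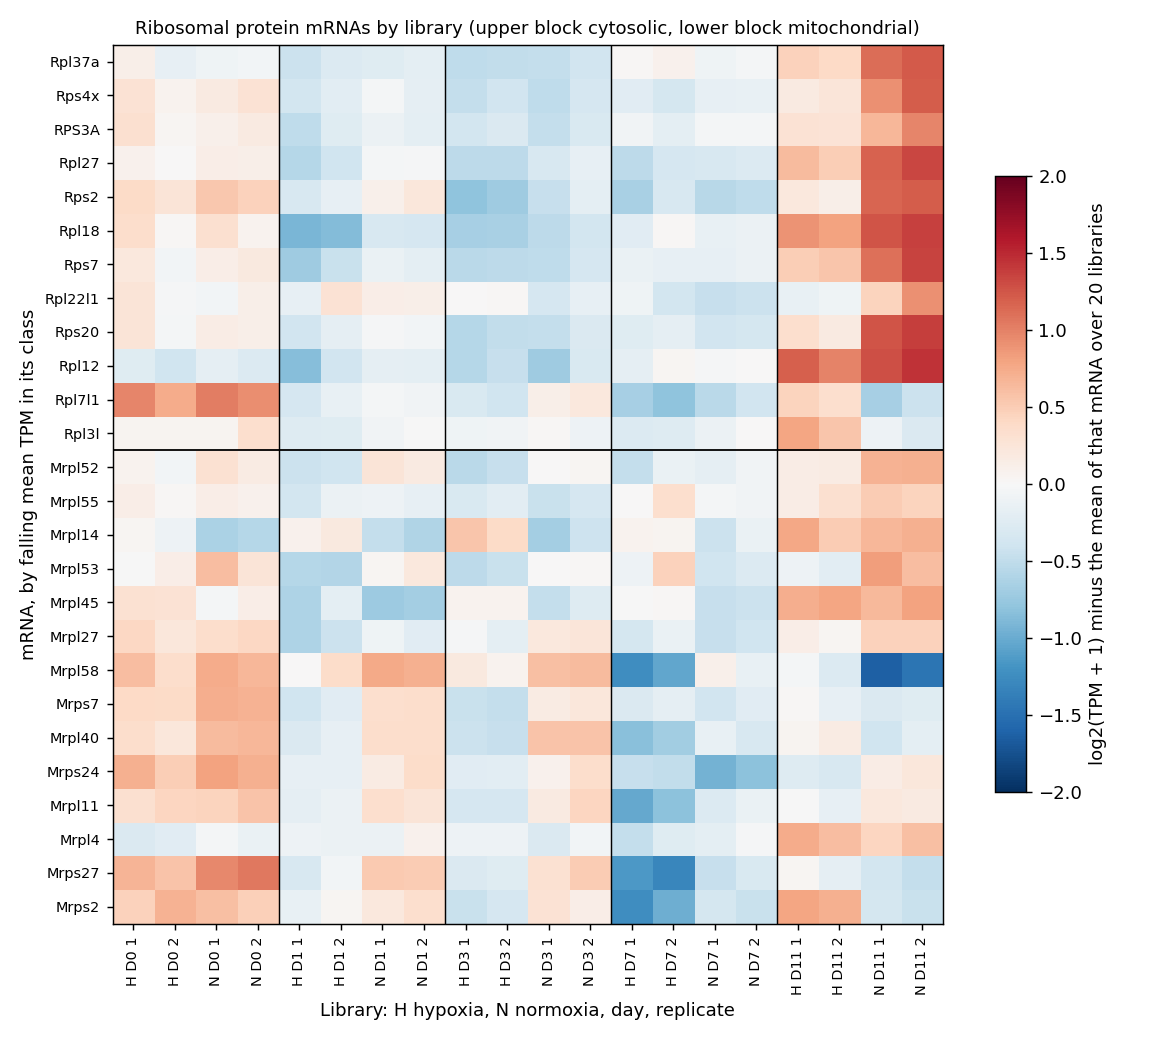
Each row is an mRNA (12 cytosolic above the line, 14 mitochondrial below, by falling mean TPM) and each column a library (H hypoxia, N normoxia, with day and replicate); colour is log2(TPM + 1) minus the mean of that mRNA over the 20 libraries. Of the 12 cytosolic rows, 10 had their highest group mean in normoxia at D11, while the mitochondrial rows had their highest in 4 different groups.

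Cytosolic mRNAs were more alike in their course over the groups than mitochondrial mRNAs. The highest group mean was that of normoxia at D11 for 12 of 14 cytosolic mRNAs, and the exceptions were Rpl3l, highest in hypoxia at D11, and Rpl7l1, highest in normoxia at D0. Mitochondrial mRNAs were highest in normoxia at D0 in 5 cases, in normoxia at D1 in 1 case (Mrpl58), in hypoxia at D11 in 3 cases and in normoxia at D11 in 5 cases. Across the 10 group means of log2(TPM + 1), the median Pearson r of pairs was 0.81 within the cytosolic class (91 pairs), 0.42 within the mitochondrial class (91 pairs, 24 of them negative) and 0.40 between the classes (196 pairs). Without Rpl3l and Rpl7l1 the median within the cytosolic class was 0.89 (66 pairs, none negative). The points of these correlations share their libraries, and the D11 libraries weigh in all of them. The profiles most like the rest of their class were those of Rpl37a and Rps7, each with a median r of 0.92, and Mrpl11 at 0.62. Those least like it were Rpl7l1 at 0.07, the ribosome-rescue factor Mrpl58 at -0.04 and Mrpl14 at -0.22. With library medians centred, the median r was 0.82 within the cytosolic class and 0.23 within the mitochondrial class (34 pairs negative). On that scale Mrpl58 was least like its class at -0.49, Rpl7l1 was at -0.32, Mrpl14 at -0.30 and Mrps2 at -0.21, against 0.44 for Mrps2 without centring.

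In normoxia the summed TPM of the 14 cytosolic mRNAs was lowest at D3 and highest at D11. The sums of the libraries were 7879 and 7817 TPM at D0, 6764 and 6826 at D1, 5250.1 and 5929 at D3, 6593 and 6730 at D7, and 15784 and 17617 at D11. They made up 3.78% and 3.86% of the listed mRNAs in normoxia at D11, and 1.73% to 2.46% in the other 18 libraries. The mitochondrial sums were 683 and 657 TPM at D0, 564 and 557 at D1, 531 and 567 at D3, 439 and 459 at D7, and 726 and 726 at D11. In bulk cells a change in the make-up of the culture and a change in RNA per cell cannot be told apart.

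**Figure D2:**
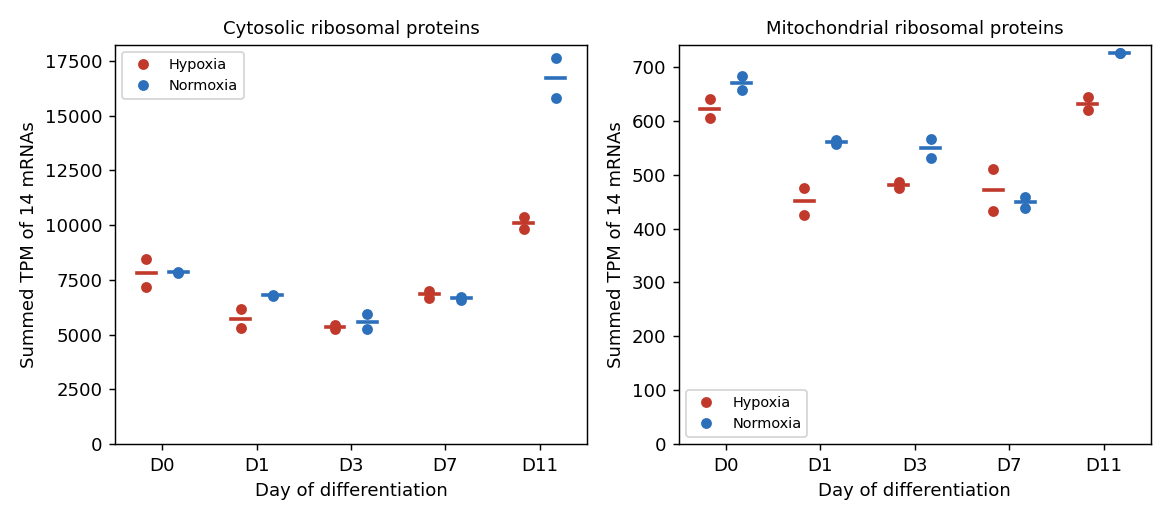
Points are libraries and lines the mean of 2 libraries, with hypoxia left of normoxia at each day; the y axis is the summed TPM of the 14 cytosolic (left) or 14 mitochondrial (right) ribosomal protein mRNAs. At D11 the cytosolic sums were 10378 and 9838 TPM in hypoxia and 15784 and 17617 TPM in normoxia, and in the 16 earlier libraries they were 8458 TPM or less.

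Between D7 and D11 of normoxia nearly the whole cytosolic class rose. Compared with D7, 12 of 14 cytosolic mRNAs rose at D11 and none fell, with a median log2 fold change of 1.30, beside a median of 0.01 over all mRNAs, of which 30.6% rose and 28.6% fell. The changes of 11 of them were past the DE thresholds, which 5.31% of all mRNAs passed upwards. Rps2, a small-subunit protein near the mRNA entry channel, had 1201 and 1247 TPM at D11, against 363 and 375 TPM at D7 (1.73 ± 0.12, adjusted p = 2.2e-09). Rps20, of the head of the small subunit, had 615 and 671 TPM at D11, against 195 and 199 TPM at D7 (1.70 ± 0.11, adjusted p = 1.6e-09). For both, each D11 library was more than 3 times each D7 library. Rpl37a had 3663 and 3958 TPM at D11, against 1585 and 1642 TPM at D7 (1.24 ± 0.10, adjusted p = 1.9e-08). Rps4x, which is encoded on the X chromosome of mammals, had 1915 and 2344 TPM at D11, against 899 and 911 TPM at D7 (1.23 ± 0.12, adjusted p = 7.1e-08). RPS3A had the smallest rise of the 12, with 1406 and 1741 TPM at D11, against 860.5 and 857 TPM at D7 (0.86 ± 0.12, adjusted p = 7.7e-06). Rpl7l1 and Rpl3l did not pass, at -0.08 and -0.14 on the log2 scale. With TPM rescaled to the total of the listed mRNAs, 12 cytosolic mRNAs rose and 2 fell. Cell type markers also moved between these days. Of the 8 named adipocyte markers, Pparg (1.77), Pnpla2 (0.65) and Dgat2 (0.60) rose. Cd36 (-3.18), Plin4 (-1.79), Fabp4 (-0.82) and Lpl (-0.79) fell. The preadipocyte markers Pdgfra (-0.85) and Zfp521 (-0.82), the endothelial Pecam1 (-0.72) and the epithelial Epcam (-1.05) fell too. Krt7 and Krt80, also epithelial, did not pass. The part of cell make-up in this step was not tested.

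In the mitochondrial class more mRNAs rose than fell between the same days, with a lower median. Compared with D7, 9 of 14 rose at D11 and 1 fell, with a median of 0.58. Rescaled to the total of the listed mRNAs, 6 rose and 5 fell. Mrpl45, which helps to anchor the mitochondrial ribosome to the inner membrane, had 83.7 and 93.3 TPM at D11, against 38.5 and 39.3 TPM at D7 (1.16 ± 0.12, adjusted p = 2.5e-07). Mrps24 had 22.0 and 23.3 TPM at D11, against 9.74 and 10.7 TPM at D7 (1.08 ± 0.11, adjusted p = 1.6e-07). Mrpl58, a peptidyl-tRNA hydrolase that frees stalled mitochondrial ribosomes, was the exception. It had 11.3 and 12.8 TPM at D11, against 39.9 and 33.4 TPM at D7 (-1.52 ± 0.13, adjusted p = 3.1e-08), the lowest level of this mRNA in any group. Mrpl40, Mrps2, Mrps7 and Mrps27 did not pass, with log2 fold changes between -0.06 and 0.04.

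Earlier steps of normoxic differentiation moved fewer cytosolic mRNAs. At D1 compared with D0, 1 cytosolic mRNA rose and 5 fell, and 6 mitochondrial mRNAs fell, beside 8.46% and 34.8% of all mRNAs. Rpl7l1 had the largest change, with 38.7 and 37.8 TPM at D1, against 82.1 and 76.7 TPM at D0 (-1.03 ± 0.12, adjusted p = 1.4e-06). Rpl18, Rps2, Rps4x and Rps7 fell by less. With library medians centred, 1 cytosolic mRNA rose and 2 fell, and 2 mitochondrial mRNAs rose and 4 fell. The cytosolic count dropped to 2 without the library Normoxia_D0 replicate 2 and to 3 without either D1 library. At D3 compared with D1, 3 cytosolic mRNAs fell, Rps2 and Rps20 among them, and 1 mitochondrial mRNA rose (Mrpl27), beside 13.7% and 10.8% of all mRNAs. None of these calls was made without Normoxia_D1 replicate 2 or without Normoxia_D3 replicate 1, and the mitochondrial one was also lost without Normoxia_D3 replicate 2. With library medians centred, 1 cytosolic mRNA rose and 4 fell.

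Between D3 and D7 of normoxia more cytosolic mRNAs rose than fell, and more mitochondrial mRNAs fell than rose. At D7 compared with D3, 5 cytosolic mRNAs rose and 1 fell, while 1 mitochondrial mRNA rose and 8 fell, beside 12.7% and 32.7% of all mRNAs. RPS3A, Rpl12, Rpl18 and Rpl37a were among those that rose, with Rpl12 at 0.49 ± 0.15, adjusted p = 0.0098, while Rpl7l1 fell (-0.62 ± 0.12, adjusted p = 0.00023). The cytosolic count was 2 without Normoxia_D3 replicate 1 or without Normoxia_D7 replicate 2. Mrps24 fell furthest, with 9.74 and 10.7 TPM at D7, against 21.0 and 25.3 TPM at D3 (-1.11 ± 0.11, adjusted p = 2.4e-07). Mrpl40 had 21.6 and 19.0 TPM at D7, against 36.0 and 35.9 TPM at D3 (-0.80 ± 0.11, adjusted p = 6.1e-06). Mrpl55 was the mitochondrial mRNA that rose (0.33 ± 0.12, adjusted p = 0.026), and Mrpl11, Mrpl27, Mrpl58, Mrps2, Mrps7 and Mrps27 made up the rest of the falls.

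With hypoxia before induction 1 of the 28 ribosomal protein mRNAs passed the test. At D0 no cytosolic mRNA passed the limma test in either direction (0 of 14 at an unadjusted p under 0.05, smallest adjusted p 0.43), and the lowest log2 fold change was that of Rps2 (-0.18). Of the mitochondrial mRNAs 1 rose and none fell at D0, beside 3.39% and 2.7% of all mRNAs, with 4 lower at an unadjusted p under 0.05, and with library medians centred 2 rose and 3 fell. The mRNA that rose was Mrpl14, with 60.8 and 55.2 TPM in hypoxia and 37.5 and 39.4 TPM in normoxia (0.58 ± 0.13, adjusted p = 0.0075). Both hypoxic libraries lay above both normoxic ones, which says little by itself with 2 libraries a group. The call was lost without Hypoxia_D0 replicate 1 (adjusted p = 0.089) and without Normoxia_D0 replicate 1 (adjusted p = 0.086). The summed TPM at D0 was 8458 and 7195 in hypoxia and 7879 and 7817 in normoxia for the cytosolic class, and 641 and 605 in hypoxia and 683 and 657 in normoxia for the mitochondrial class. Some cell type markers moved at D0 as well. Krt80 (1.14), Krt7 (1.11), Pdgfra (0.64) and Pecam1 (0.39) rose. Zfp521, Epcam and the 8 named adipocyte markers did not pass. The part of cell make-up in the results at D0 was not tested.

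At D1 and D3 hypoxia lowered most of the mitochondrial mRNAs. At D1, 10 of 14 fell and 1 rose, with a median log2 fold change of -0.44, beside 18.9% and 7.36% of all mRNAs. At D3, 10 of 14 fell and 2 rose, with a median of -0.49, beside 19.3% and 10.4% of all mRNAs. The same 10 fell at both days: Mrpl11, Mrpl27, Mrpl40, Mrpl52, Mrpl53, Mrpl58, Mrps2, Mrps7, Mrps24 and Mrps27. The mitochondrial sum was 424 and 476 TPM in hypoxia and 564 and 557 TPM in normoxia at D1, and 486 and 475 TPM in hypoxia and 531 and 567 TPM in normoxia at D3, without overlap. Leaving out 1 library left 8 to 11 calls at D1 and 8 to 10 at D3. Cell type markers also differed at these days. The 2 named preadipocyte markers of 9, Pdgfra and Zfp521, summed to 10.9 to 12.4 TPM in hypoxia and 5.93 to 6.19 TPM in normoxia at D1, and to 15.2 to 16.6 TPM in hypoxia and 7.72 to 9.24 TPM in normoxia at D3, where Pdgfra rose at both days and Zfp521 passed at neither. The 3 named epithelial markers of 6 summed to 3.52 to 4.24 TPM in hypoxia and 0.806 to 0.921 TPM in normoxia at D1, and to 14.2 to 14.7 TPM in hypoxia and 3.22 to 4.34 TPM in normoxia at D3. Krt7 and Krt80 rose at both days and Epcam passed at neither. Pecam1 also rose at both days, with log2 fold changes of 0.55 at D1 and 0.53 at D3. Of the 8 named adipocyte markers of 12, 2 rose at D1 (Pparg at 0.66 and Plin4 at 0.57) and none fell. At D3, 1 of these 8 rose (Dgat2 at 0.74) and 1 fell (Pparg at -0.45). The part of cell make-up in the mitochondrial result was not tested.

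Mrpl52, the most abundant mitochondrial mRNA, had 69.6 and 70.5 TPM in hypoxia and 113 and 106 TPM in normoxia at D1 (-0.64 ± 0.11, adjusted p = 0.0003). At D3 it had 64.4 and 67.8 TPM in hypoxia and 94.6 and 96.6 TPM in normoxia (-0.53 ± 0.11, adjusted p = 0.0014). Mrps7, a small-subunit protein, fell by similar amounts at both days, with -0.65 at D1 and -0.65 at D3. Mrps27, a pentatricopeptide-repeat protein of the small subunit, had 6.15 and 7.52 TPM in hypoxia and 11.7 and 11.7 TPM in normoxia at D1 (-0.71 ± 0.12, adjusted p = 0.0002). Mrpl53 had 39.0 and 38.7 TPM in hypoxia and 60.2 and 67.7 TPM in normoxia at D1 (-0.70 ± 0.15, adjusted p = 0.0019). Its fall at D3 (-0.50 ± 0.15, adjusted p = 0.017) was lost when any one of the D3 libraries was left out. Mrpl40 had the largest fall at D3, where it was DE (downwards, 0.485% of all mRNAs were), with 17.5 and 17.1 TPM in hypoxia and 36.0 and 35.9 TPM in normoxia (-1.01 ± 0.11, adjusted p = 9.4e-07), and at D1 it had 19.5 and 21.2 TPM in hypoxia and 30.6 and 30.8 TPM in normoxia (-0.57 ± 0.11, adjusted p = 0.0005). Mrps2, of the small subunit, had 5.85 and 6.81 TPM in hypoxia and 7.81 and 8.65 TPM in normoxia at D1 (-0.33 ± 0.12, adjusted p = 0.044) and 4.61 and 5.05 TPM in hypoxia and 8.29 and 7.35 TPM in normoxia at D3 (-0.60 ± 0.12, adjusted p = 0.0009). Its call at D1 was near the threshold and was lost in 3 of the 4 fits without a library.

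Mrpl14 and Mrpl45 moved against their class. Mrpl14 had 62.4 and 67.7 TPM in hypoxia and 42.2 and 38.4 TPM in normoxia at D1 (0.68 ± 0.13, adjusted p = 0.00059). At D3 it was DE upwards, as were 1.4% of all mRNAs, with 87.4 and 76.8 TPM in hypoxia and 36.3 and 44.1 TPM in normoxia (1.02 ± 0.13, adjusted p = 8.4e-06). The normoxic level of Mrpl14 was under 45 TPM at D0, D1 and D3, so that the rise was seen in the hypoxic libraries. Mrpl45 had 34.2 and 46.5 TPM in hypoxia and 31.9 and 32.7 TPM in normoxia at D1, which did not pass (0.30 ± 0.12, adjusted p = 0.085), and 56.0 and 55.6 TPM in hypoxia and 38.1 and 44.6 TPM in normoxia at D3 (0.43 ± 0.12, adjusted p = 0.013). Its call at D3 was lost without Hypoxia_D3 replicate 1, Hypoxia_D3 replicate 2 or Normoxia_D3 replicate 1. Mrpl4 and Mrpl55 passed the test at no day, with log2 fold changes of -0.17, -0.09, 0.07, -0.25 and 0.16 for Mrpl4 and -0.04, -0.10, 0.13, 0.23 and -0.24 for Mrpl55 at D0, D1, D3, D7 and D11.

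Fewer cytosolic mRNAs passed at these days. At D1, 5 of 14 fell and none rose, beside 18.9% and 7.36% of all mRNAs, with a median of -0.23, and all 14 log2 fold changes were below 0. Rpl18 fell furthest, with 231 and 240.4 TPM in hypoxia and 353 and 349 TPM in normoxia (-0.57 ± 0.12, adjusted p = 0.0017), and Rpl12, Rpl27, Rps2 and Rps7 had log2 fold changes between -0.45 and -0.40. The count was 1 without Hypoxia_D1 replicate 1, 3 without Normoxia_D1 replicate 1 and 2 without Normoxia_D1 replicate 2. The most abundant cytosolic mRNAs did not pass. Rpl37a had 1249 and 1396 TPM in hypoxia and 1423 and 1480.0 TPM in normoxia (-0.14 ± 0.10, adjusted p = 0.37). Rps4x had 788 and 876 TPM in hypoxia and 986 and 893 TPM in normoxia (-0.18 ± 0.12, adjusted p = 0.3). RPS3A had 621 and 743 TPM in hypoxia and 811 and 769.7 TPM in normoxia (-0.22 ± 0.12, adjusted p = 0.22). The summed TPM of the class at D1 was 5319 and 6153 in hypoxia and 6764 and 6826 in normoxia. At D3, 2 of 14 fell and none rose, beside 19.3% and 10.4% of all mRNAs, with a median of -0.09, and with library medians centred 2 rose and 2 fell. Rpl7l1 had 31.9 and 30.0 TPM in hypoxia and 43.2 and 46.2 TPM in normoxia (-0.52 ± 0.12, adjusted p = 0.0025). Rps2 had 307 and 328 TPM in hypoxia and 391 and 468 TPM in normoxia (-0.43 ± 0.12, adjusted p = 0.011). The call for Rps2 at D3 was lost without Hypoxia_D3 replicate 1 and without Normoxia_D3 replicate 2. Whether hypoxia affected the 2 classes differently was not tested, since mRNAs of the same libraries are not replicates.

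**Figure D3:**
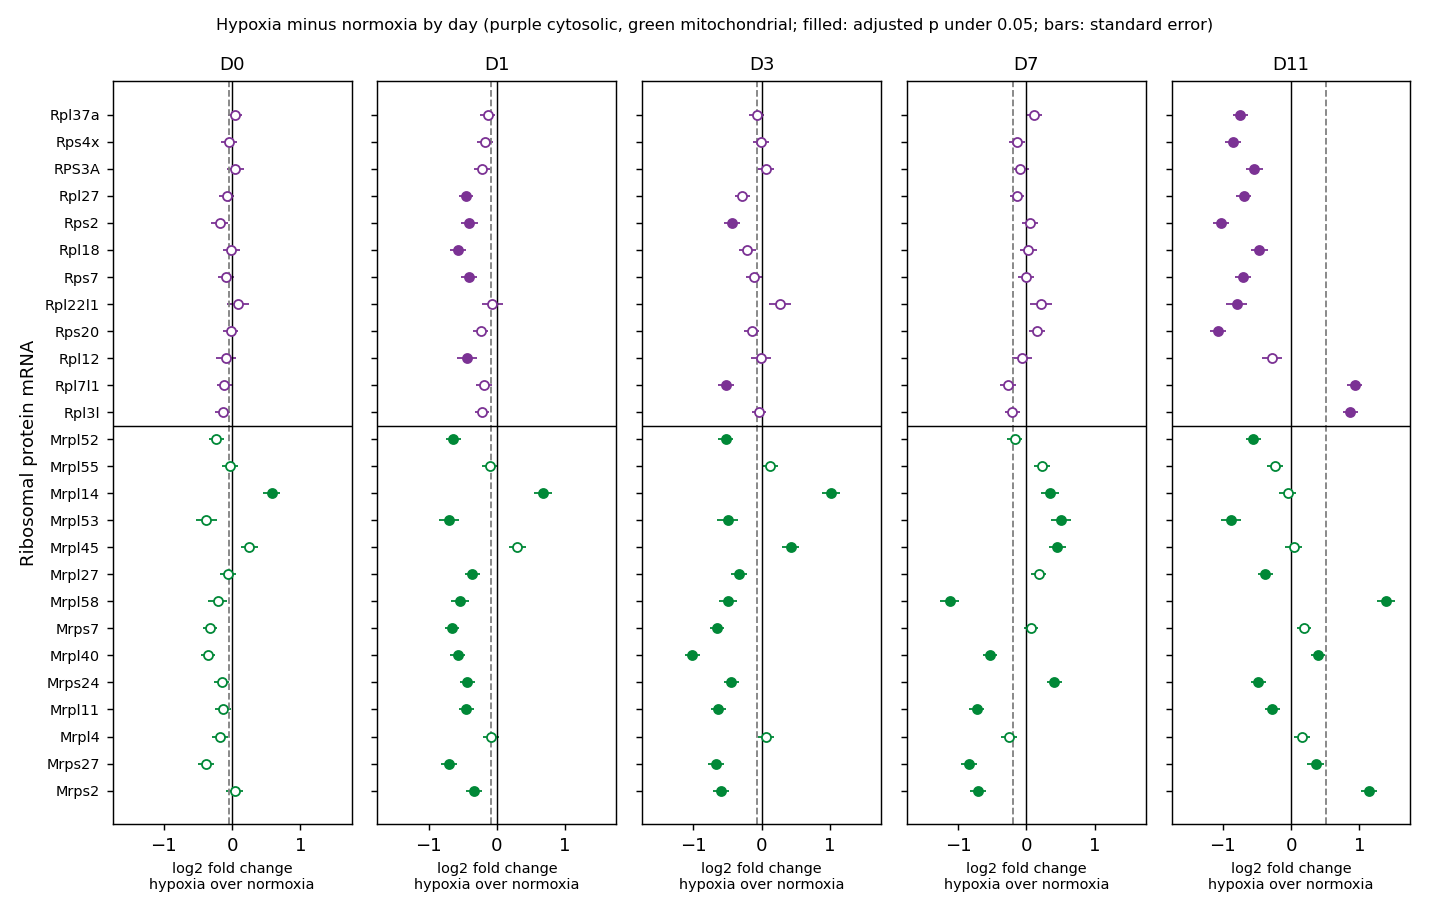
Points are log2 fold changes of hypoxia over normoxia and bars their standard errors, for 12 cytosolic (purple) and 14 mitochondrial (green) mRNAs at each day; filled points passed an adjusted p under 0.05, and the dashed line is the median of all 10318 mRNAs. No cytosolic mRNA passed at D7, and at D11 those that passed included Rps2, Rps20 and Rpl7l1, while 10 mitochondrial mRNAs fell at both D1 and D3.

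At D7 the cytosolic mRNAs did not pass the test and the mitochondrial mRNAs split. None of the 14 cytosolic mRNAs passed in limma (1 lower at an unadjusted p under 0.05, Rpl7l1 at -0.27 ± 0.12, adjusted p = 0.058), and their log2 fold changes lay between -0.27 and 0.22 with a median of 0.01. All mRNAs had a median of -0.19 at this day, and 9.97% of them rose and 39.2% fell. Relative to that median the cytosolic median was 0.21, and once library medians were centred 7 cytosolic mRNAs rose and none fell, whereas 1 rose and 2 fell with TPM rescaled to the listed mRNAs. Values of some abundant cytosolic mRNAs at D7 were as follows. Rps4x had 864 and 789 TPM in hypoxia and 899 and 911 TPM in normoxia. RPS3A had 844 and 770 TPM in hypoxia and 860 and 857 TPM in normoxia. Rps20 had 215 and 226 TPM in hypoxia and 195 and 199 TPM in normoxia (0.16 ± 0.11, adjusted p = 0.26). Rps2 had 342 and 430.2 TPM in hypoxia and 363 and 375 TPM in normoxia (0.05 ± 0.12, adjusted p = 0.73). Rpl37a had 1717 and 1790.0 TPM in hypoxia and 1585 and 1642 TPM in normoxia (0.12 ± 0.10, adjusted p = 0.36). Of 14 mitochondrial mRNAs 4 rose and 5 fell, with a median of -0.05, and with that centring 7 rose and 5 fell. Cell type markers also moved at D7. Pdgfra (-0.85), Zfp521 (-0.73), Pecam1 (-0.76), Epcam (-0.90) and Krt80 (-0.57) fell, and Krt7 did not pass. Of the 8 named adipocyte markers, Pparg (0.93), Pnpla2 (0.91) and Dgat2 (0.30) rose. Fabp4 (-0.98), Plin4 (-0.64) and Cd36 (-0.55) fell. The part of cell make-up in the results at D7 was not tested.

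The 5 mitochondrial mRNAs that fell at D7 had also fallen at D1 and D3. Mrpl58 was DE downwards, as were 4.86% of all mRNAs, with 15.0 and 17.5 TPM in hypoxia and 39.9 and 33.4 TPM in normoxia (-1.12 ± 0.13, adjusted p = 1.9e-06). Mrps27 had 3.0 and 2.6 TPM in hypoxia and 5.45 and 6.19 TPM in normoxia (-0.84 ± 0.12, adjusted p = 1e-05). Mrps2 had 2.24 and 2.89 TPM in hypoxia and 5.01 and 4.61 TPM in normoxia (-0.71 ± 0.12, adjusted p = 6.9e-05), and these were its lowest levels of all groups. Mrpl11, homologous to the protein at the base of the stalk that binds elongation factors in bacterial ribosomes, had 8.08 and 9.45 TPM in hypoxia and 14.3 and 16 TPM in normoxia (-0.73 ± 0.11, adjusted p = 3e-05). Mrpl40 had 13.0 and 14.4 TPM in hypoxia and 21.6 and 19.0 TPM in normoxia (-0.53 ± 0.11, adjusted p = 0.00036). For each of these 5 the libraries of hypoxia lay below those of normoxia, as they did for 55.7% of all mRNAs.

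The 4 that rose at D7 were Mrpl14, Mrpl45, Mrpl53 and Mrps24. Mrpl14 had 62.1 and 61.3 TPM in hypoxia and 43.6 and 53.5 TPM in normoxia (0.35 ± 0.13, adjusted p = 0.028), a call lost without Hypoxia_D7 replicate 1, Hypoxia_D7 replicate 2 or Normoxia_D7 replicate 1. Mrpl45 had 53.1 and 54.1 TPM in hypoxia and 38.5 and 39.3 TPM in normoxia (0.45 ± 0.12, adjusted p = 0.0052). Both had risen at D3 as well. Mrpl53 had 54.1 and 80.4 TPM in hypoxia and 43.9 and 48.2 TPM in normoxia (0.51 ± 0.15, adjusted p = 0.0084), where the libraries of hypoxia were far apart. Without Hypoxia_D7 replicate 2 its log2 fold change was 0.23 (adjusted p = 0.25), and without Normoxia_D7 replicate 1 the adjusted p was 0.067. Mrps24 had 14 and 13.7 TPM in hypoxia and 9.74 and 10.7 TPM in normoxia (0.41 ± 0.11, adjusted p = 0.0046), with an adjusted p of 0.052 without Normoxia_D7 replicate 1. Mrpl53 and Mrps24 had fallen at D1 and D3.

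At D11 the cytosolic class had its largest median difference of the 5 days, with lower levels in hypoxia. Of 14 cytosolic mRNAs 10 fell and 2 rose, with a median log2 fold change of -0.70, beside 13.2% and 63.3% of all mRNAs, whose median was 0.51. The cytosolic median relative to all mRNAs was thus -1.21. One of the 2 that rose, Rpl3l, is in the table through hypoxia at D11 alone, so its direction at D11 was set by the filter on low values. Of the other 13, 10 fell and 1 rose, with a median of -0.70. The count of 12 was 12 to 13 when any library of D11 was left out, and 12 fell and 2 rose once library medians were centred. On the TPM scale the class summed to 10378 and 9838 in hypoxia and 15784 and 17617 in normoxia at D11, all above the sums of the 16 earlier libraries. As a share of the listed mRNAs, hypoxia at D11 had 2.27% and 2.25%, within the 1.73% to 2.46% of the earlier libraries and below the 2.30% to 2.46% of the 4 D7 libraries, and normoxia at D11 had 3.78% and 3.86%. Summed TPM of the 2 named preadipocyte markers of 9, Pdgfra and Zfp521, was 24.0 to 27.9 in hypoxia and 10.1 to 12.7 in normoxia at D11, and that of the 8 adipocyte markers was 469 to 519 in hypoxia and 471 to 571 in normoxia. Singly, 5 of these 8 rose and 1 fell at D11, with a median log2 fold change of 1.23. Cd36 (2.89), Plin4 (2.28), Lpl (1.47), Pnpla2 (1.45) and Lipe (1.02) rose and Pparg (-0.58) fell. Pecam1 (0.81), Krt80 (0.90) and Krt7 (0.31) rose too, and Epcam did not pass. The part of cell make-up in the cytosolic result was not tested.

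Small-subunit mRNAs held the 2 DE changes of the class. Rps20 had 322 and 290.5 TPM in hypoxia and 615 and 671 TPM in normoxia (-1.07 ± 0.11, adjusted p = 7.1e-08). Rps2 had 623 and 582 TPM in hypoxia and 1201 and 1247 TPM in normoxia (-1.02 ± 0.12, adjusted p = 2.6e-07). Each hypoxic library lay far below each normoxic one, and the libraries did not overlap in this direction for 16.3% of all mRNAs. The DE thresholds were passed downwards by 2.64% of all mRNAs at D11. Rps4x had 1149 and 1197 TPM in hypoxia and 1915 and 2344 TPM in normoxia (-0.85 ± 0.12, adjusted p = 2e-06). RPS3A had 1082 and 1067 TPM in hypoxia and 1406 and 1741 TPM in normoxia (-0.54 ± 0.12, adjusted p = 0.00056). Rps7 also fell (-0.70 ± 0.12, adjusted p = 2.4e-05).

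Large-subunit mRNAs fell as well. Rpl37a had 2336 and 2222 TPM in hypoxia and 3663 and 3958 TPM in normoxia (-0.74 ± 0.10, adjusted p = 2.7e-06). The libraries of the groups did not overlap, as in this direction for 16.3% of all mRNAs. Rpl22l1, a paralog of Rpl22, had 293 and 308 TPM in hypoxia and 443 and 616 TPM in normoxia (-0.80 ± 0.16, adjusted p = 0.00013). Rpl27 and Rpl18 had log2 fold changes of -0.70 and -0.47. Rpl12, part of the stalk base, did not pass (-0.28 ± 0.15, adjusted p = 0.094).

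The 2 that rose were the paralogs of low level. Rpl7l1 had 54.4 and 50.4 TPM in hypoxia and 24.8 and 29.4 TPM in normoxia (0.93 ± 0.12, adjusted p = 5.9e-07), with each hypoxic library above each normoxic one, as for 68.2% of all mRNAs. Its yeast homolog acts in the assembly of the large subunit. Rpl3l had 1.51 and 1.14 TPM in hypoxia and 0.357 and 0.186 TPM in normoxia. These levels are a description, since Rpl3l entered the table through hypoxia at D11 alone, and its level was under 2 TPM in every library.

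**Figure D4:**
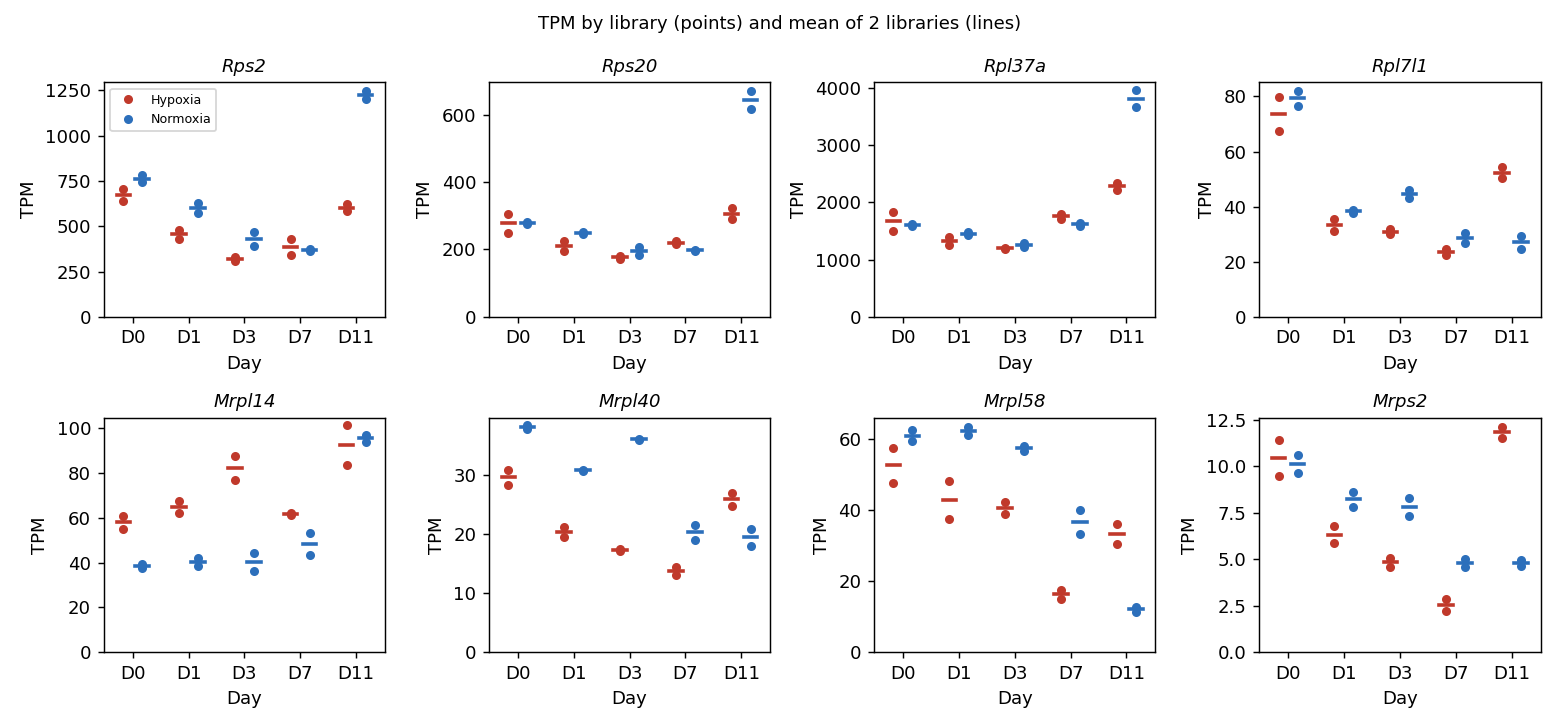
Each panel shows the TPM of 1 mRNA in every library (points) with the mean of 2 libraries (lines), with hypoxia left of normoxia at each day. At D11 Rps2, Rps20 and Rpl37a were lower in hypoxia, Rpl7l1, Mrpl58 and Mrps2 were higher, and Mrpl14 overlapped between the conditions.

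Mitochondrial mRNAs moved both ways at D11. Of 14, 4 rose and 5 fell, beside 63.3% and 13.2% of all mRNAs, with a median of -0.01, which was -0.52 relative to all mRNAs. Once library medians were centred, 2 rose and 10 fell. The mitochondrial sum was 643 and 619 TPM in hypoxia and 726 and 726 TPM in normoxia. The 4 that rose had been among the 5 that fell at D7. Mrpl58 had 36.0 and 30.5 TPM in hypoxia and 11.3 and 12.8 TPM in normoxia (1.39 ± 0.13, adjusted p = 2.3e-08) and Mrps2 had 12.1 and 11.6 TPM in hypoxia and 4.98 and 4.62 TPM in normoxia (1.15 ± 0.12, adjusted p = 5.3e-08), and both were DE upwards, as were 21.2% of all mRNAs. Mrpl40 had 24.8 and 26.8 TPM in hypoxia and 17.9 and 20.9 TPM in normoxia (0.40 ± 0.11, adjusted p = 0.002). Mrps27 had 8.16 and 6.87 TPM in hypoxia and 5.88 and 5.37 TPM in normoxia (0.36 ± 0.12, adjusted p = 0.0094). The direction of these last 2 depends on the scale: relative to the median of all mRNAs they were at -0.12 and -0.16, and the call for Mrps27 was lost without Hypoxia_D11 replicate 1 (adjusted p = 0.12) and without Normoxia_D11 replicate 2 (adjusted p = 0.061).

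The 5 that fell at D11 were Mrpl11, Mrpl27, Mrpl52, Mrpl53 and Mrps24, all of which had fallen at D1 and D3. Mrpl53 had 54.6 and 50.3 TPM in hypoxia and 105 and 90.1 TPM in normoxia (-0.88 ± 0.15, adjusted p = 2.9e-05). Mrpl52 had 103 and 105 TPM in hypoxia and 153 and 154 TPM in normoxia (-0.55 ± 0.11, adjusted p = 0.00015). Mrps24 had 16.3 and 15.5 TPM in hypoxia and 22.0 and 23.3 TPM in normoxia (-0.48 ± 0.11, adjusted p = 0.00062). Hypoxic libraries lay below normoxic ones for each of these, as for 16.3% of all mRNAs. Mrpl27 and Mrpl11 had log2 fold changes of -0.37 and -0.28. Mrpl55 had 75.8 and 85.6 TPM in hypoxia and 97.8 and 93.0 TPM in normoxia, which did not pass (-0.24 ± 0.12, adjusted p = 0.068). Mrpl14, which was higher in hypoxia at every earlier day, had 101 and 83.9 TPM in hypoxia and 94.1 and 97.0 TPM in normoxia (-0.05 ± 0.13, adjusted p = 0.73), and the libraries of the conditions overlapped.

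The difference between the effects of hypoxia at D11 and at D7 was tested in the same fit. It passed for 12 of 14 cytosolic mRNAs, 2 with a higher and 10 with a lower effect at D11 (1 and 10 of 13 without Rpl3l), and for 12 of 14 mitochondrial mRNAs, 6 higher and 6 lower (3 and 10 with library medians centred), beside 62.6% and 12.1% of all mRNAs, whose median difference was 0.70. The largest difference was that of Mrpl58, with an effect of 1.39 at D11 and -1.12 at D7 (2.51 ± 0.19, adjusted p = 8.9e-10). Mrps2 followed, with 1.15 at D11 and -0.71 at D7 (1.86 ± 0.17, adjusted p = 8.7e-09). Among mRNAs whose effect was lower at D11, Mrpl53 had -0.88 at D11 and 0.51 at D7 (-1.39 ± 0.21, adjusted p = 7.9e-06), and Rps20 had -1.07 at D11 and 0.16 at D7 (-1.23 ± 0.16, adjusted p = 1.1e-06). Of the mitochondrial mRNAs, 4 fell at D7 and rose at D11 (Mrpl40, Mrpl58, Mrps2 and Mrps27), and 2 rose at D7 and fell at D11 (Mrpl53 and Mrps24). No cytosolic mRNA passed at D7, so none could be called in opposite directions at the 2 days. By value some cytosolic signs did differ, such as that of Rps20 (0.16 at D7 and -1.07 at D11).

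**Figure D5:**
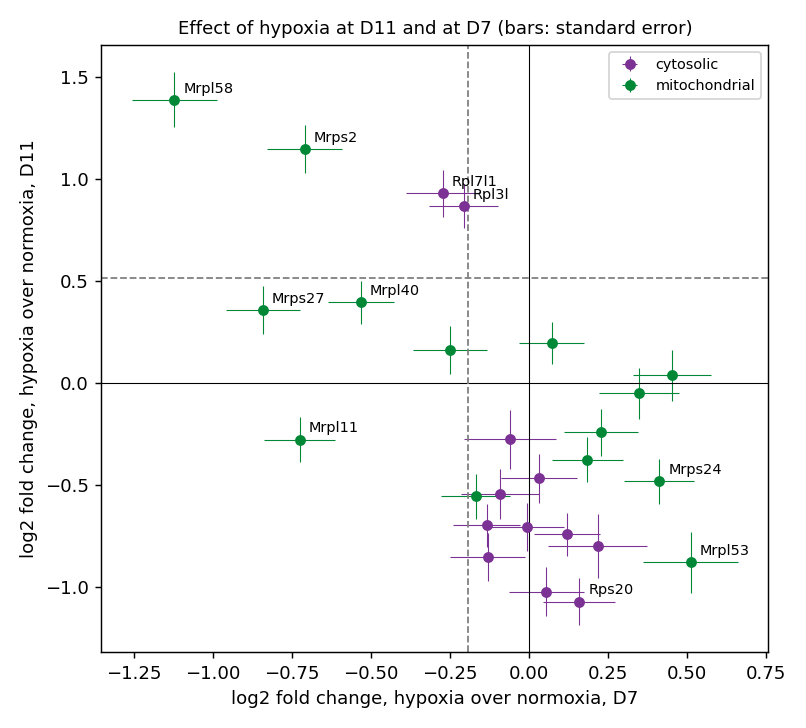
Each point is an mRNA (12 cytosolic in purple, 14 mitochondrial in green), with its log2 fold change of hypoxia over normoxia at D7 on the x axis and at D11 on the y axis, bars for standard errors and dashed lines for the medians of all mRNAs. Cytosolic mRNAs lay between -0.27 and 0.22 at D7 and between -1.07 and 0.93 at D11, and Mrpl58 and Mrps2 had the opposite sign at the 2 days.

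How the mRNAs came to have names bears on these counts. Of the 28, 11 were named as DE mRNAs by the authors (5 cytosolic and 6 mitochondrial), so they were picked for a change in these same libraries. The other 17 were named only as neighbours of a changed lncRNA (9 cytosolic and 8 mitochondrial). The copy of the names in hand is shortened at D11, so some of the 17 may also have been listed as DE there. Rps20, DE at D11 in the limma fit, is among them. Their lncRNAs were called in these same libraries, so the 17 are not an unselected check. Among the 17, cytosolic mRNAs showed the same counts in outline at D11, with 6 of 9 lower and 1 higher (median -0.54). The 8 mitochondrial neighbours did not show the split at D11: none rose and 4 fell (median -0.26), so all 4 that rose were among the 6 picked as DE. At D1 and at D3, 5 of these 8 mitochondrial mRNAs fell, and 0 and 1 of them rose.

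Other genes of the machinery that makes and uses ribosomes were counted from lists. The genes counted here and in the next lists also got names in part through a change in these libraries. The lists are thus not unselected sets, while the shares beside their counts are over all mRNAs, named or not. Ribosome biogenesis, with 32 named genes of 117, had more falls than rises in hypoxia up to D7 and more rises than falls at D11. The falls in hypoxia numbered 10 (D0), 23 (D1), 20 (D3), 15 (D7) and 2 (D11) and the rises 0 (D0), 0 (D1), 1 (D3), 2 (D7) and 24 (D11). Of all mRNAs 2.7% (D0), 18.9% (D1), 19.3% (D3), 39.2% (D7) and 13.2% (D11) fell, and 63.3% rose at D11. Nop56, a protein of the box C/D small nucleolar particles, had 11.2 and 9.49 TPM in hypoxia and 22.7 and 23.8 TPM in normoxia at D7 (-1.10 ± 0.13, adjusted p = 1.3e-06), and Utp20, of the small-subunit processome, had 3.22 and 3.17 TPM in hypoxia and 7.36 and 7.63 TPM in normoxia at D7 (-1.02 ± 0.11, adjusted p = 4.1e-07). At D11 Ubtf, the RNA polymerase I factor of ribosomal DNA, had 32.1 and 29.9 TPM in hypoxia and 9.94 and 11.9 TPM in normoxia (1.43 ± 0.11, adjusted p = 1.7e-09), and Nvl, an ATPase of large-subunit assembly, had 14.1 and 14.5 TPM in hypoxia and 4.44 and 5.22 TPM in normoxia (1.39 ± 0.11, adjusted p = 1.8e-09). The median over the list was 0.67 at D11, near the 0.51 of all mRNAs.

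Genes of mitochondrial translation other than ribosomal proteins, such as aminoacyl-tRNA synthetases and assembly factors, had more falls at D7 and more rises at D11, as all mRNAs did. Of 24 named among 60, at D7 12 fell against 1 rise and at D11 18 rose against 2 falls, beside 39.2% of all mRNAs falling at D7 and 63.3% rising at D11. The medians were -0.32 at D7 and 0.73 at D11, or -0.13 and 0.22 relative to all mRNAs. Nars2, the mitochondrial asparaginyl-tRNA synthetase, had 3.01 and 1.45 TPM in hypoxia and 7.09 and 7.26 TPM in normoxia at D7 (-1.38 ± 0.17, adjusted p = 3e-06). Mtg2, a GTPase of the mitochondrial ribosome, had 2.30 and 1.93 TPM in hypoxia and 6.33 and 6.60 TPM in normoxia at D7 (-1.26 ± 0.10, adjusted p = 1.9e-08). Vars2, the mitochondrial valyl-tRNA synthetase, had 6.17 and 4.75 TPM in hypoxia and 1.05 and 1.00 TPM in normoxia at D11 (1.66 ± 0.10, adjusted p = 8.4e-11), and Mrm1, which methylates mitochondrial ribosomal RNA, had 10.9 and 10.2 TPM in hypoxia and 3.22 and 2.98 TPM in normoxia at D11 (1.49 ± 0.11, adjusted p = 5.5e-10). Subunits of oxidative phosphorylation, 15 named of 76, had 2 higher and 1 lower at D7 and 3 higher and 4 lower at D11. Their background was 9.97% of listed mRNAs higher and 39.2% lower at D7, and 63.3% higher and 13.2% lower at D11. With the median of all mRNAs subtracted, the median of these subunits was 0.18 at D7 and -0.46 at D11. At D7 the complex IV subunit Cox7a1 rose (0.99 ± 0.26, adjusted p = 0.0038) and Atp5o, of the ATP synthase, fell (-0.50 ± 0.13, adjusted p = 0.0034). At D11 Ndufv3, of complex I, rose (0.90 ± 0.15, adjusted p = 2.6e-05) and Cox6a1, of complex IV, fell (-0.63 ± 0.10, adjusted p = 9.9e-06).

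Translation factors, 13 named of 52, had 1 higher and 2 lower at D7 and 4 higher and 3 lower at D11. With the median of all mRNAs subtracted, the median of this list was 0.23 at D7 and -0.33 at D11. Among the 10318 listed mRNAs hypoxia raised 9.97% and lowered 39.2% at D7. At D11 it raised 63.3% and lowered 13.2%. The initiation factors Eif4g2 (-0.74 ± 0.15, adjusted p = 0.00048) and Eif5 (-0.60 ± 0.13, adjusted p = 0.001) fell at D7, and the poly(A)-binding protein Pabpc4 (1.22 ± 0.14, adjusted p = 1.6e-07) and Eif5 (1.19 ± 0.13, adjusted p = 1.7e-07) rose at D11. Of the Rps6k kinases, some of which phosphorylate ribosomal protein S6 and all of which the choice by name left out, 3 were named, and all 3 fell at D7 and rose at D11. Rps6kb1 had 43.4 and 45.6 TPM in hypoxia and 19.5 and 24.5 TPM in normoxia at D11 (0.99 ± 0.12, adjusted p = 5.8e-07) and 25.0 and 21.1 TPM in hypoxia and 37.8 and 37.2 TPM in normoxia at D7 (-0.68 ± 0.12, adjusted p = 0.00016). Rps6kb2 had log2 fold changes of 0.73 at D11 and -0.61 at D7. Of 15 named genes of mTORC1 and its targets among 29, at D7 7 fell against 4 rises and at D11 11 rose against 1 fall, beside the same shares of all mRNAs (39.2% falling at D7 and 63.3% rising at D11), and the medians relative to all mRNAs were -0.01 at D7 and 0.51 at D11. Fnip2, a folliculin partner, rose at D7 (1.29 ± 0.16, adjusted p = 3.8e-06), and Mlst8, a subunit of mTORC1, fell at D7 (-0.83 ± 0.12, adjusted p = 1.2e-05) and rose at D11 (1.77 ± 0.12, adjusted p = 1.9e-10). Eef2k, the kinase of elongation factor 2, rose at D11 (1.50 ± 0.12, adjusted p = 1.8e-09).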

How the data were processed

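Gene expression was measured by RNA-seq of RNA depleted of ribosomal RNA in 20 libraries. The deposited values are TPM from kallisto 0.44.0, made by the authors with the CriGri-PICR genome as reference, after images were processed with CASAVA 1.8.2 and reads aligned with STAR 2.6.0c. The authors kept mRNAs with a TPM over 1 in both libraries of a group, which ties the presence of a low mRNA in the table to the group where it was high. Read counts of genes were not used here, so the precision that depth gives to a TPM is unknown, and the count test of the study (edgeR) was replaced by limma. TPM are shares of a library, so a large change in a few transcripts moves all others.

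Names were taken from the paper's supplementary tables, of which the copy in hand is shortened at D11. Log2(TPM + 1) of all 10318 mRNAs was fitted in limma 3.58.1 (R 4.3.3) with 10 group means, eBayes with trend and 10 residual degrees of freedom, and p-values were adjusted within each of 10 contrasts. The fit was tested on simulated data. For 2 cytosolic mRNAs single results are not reported here and no point or row is plotted, but they count in every count, sum and median of the class. The mRNAs and gene lists were chosen with earlier results of these data known. Values by library were given, at the days described, for the 3 highest and 2 lowest mRNAs of each class, DE mRNAs and mRNAs that at D7 or D11 passed against their class, and for others where a result turned on them; in each other list the 2 largest changes past the test at D7 and at D11 were named. Alternatives were a pseudocount of 0.1, a mean TPM of at least 5, centring each library on its median, rescaling to the listed mRNAs, a replicate block, a fit of the compared groups alone, a fit without D11 and leaving out each library. Summaries used Python 3.11.15, pandas 2.3.3, numpy 2.4.6 and matplotlib 3.10.9. No sequences were shown, as no sequence of this build was at hand.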

Additional observations from a re-analysis of the deposited data

Results flagged for a closer look

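The effect of hypoxia differed between D11 and D7 by a test of the difference itself for 12 of 14 cytosolic and 12 of 14 mitochondrial mRNAs. One of the 12 cytosolic, Rpl3l, is in the table through hypoxia at D11 alone, and 11 of 13 passed without it. The log2 effect at D11 minus that at D7 was 2.51 for Mrpl58, 1.86 for Mrps2, 1.20 for Mrps27 and 0.93 for Mrpl40, which were lower in hypoxia at D7 and higher at D11. It was -1.39 for Mrpl53 and -0.89 for Mrps24, which were higher in hypoxia at D7 and lower at D11. All of these except Mrps24 have names because they were listed as DE in the same libraries, so they were picked for a change, and of the 8 mitochondrial mRNAs named only as neighbours of a lncRNA none rose at D11. With library medians centred, Mrpl40 and Mrps27 were lower in hypoxia at D11 and did not pass. Without Hypoxia_D7 replicate 2 the log2 fold change of Mrpl53 at D7 was 0.23 in place of 0.51. The median over all mRNAs of the effect at D11 minus that at D7 was 0.70, and the D11 labels were taken as given.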

How the results depend on the processing

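The total of mRNAs past the adjusted p stayed within 1.5 times at D11 and between normoxic D7 and D11, but the split by direction of the mitochondrial class did not: rescaled to the listed mRNAs, 6 rose and 5 fell between normoxic D7 and D11 in place of 9 and 1. After centring of library medians, 5 mitochondrial mRNAs passed at D0 in place of 1, 4 cytosolic at D3 in place of 2, 7 cytosolic at D7 in place of 0, 3 cytosolic at normoxic D1 over D0 in place of 6, and 5 cytosolic and 3 mitochondrial at normoxic D3 over D1 in place of 3 and 1. Rescaled to the listed mRNAs, these were 4 at D0, 4 at D3, 3 at D7, 3 at D1 over D0 and 3 mitochondrial at D3 over D1. In a fit of the compared groups alone, 4 mitochondrial passed at D0, 5 cytosolic at D3, and 7 cytosolic and 2 mitochondrial at D3 over D1. Without the D11 libraries, 3 mitochondrial passed at D0, 1 cytosolic at D7 and 2 mitochondrial at D3 over D1. Centring also moved the split at D11 to 2 higher and 10 lower mitochondrial mRNAs, and that of the difference between D11 and D7 to 3 and 10, and it reversed Mrpl40 (-0.16, adjusted p = 0.14) and Mrps27 (-0.20, adjusted p = 0.056) at D11. The cause of these changes was not tested.

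Leaving out 1 library gave 0 to 1 mitochondrial calls at D0, 1 to 5 cytosolic calls at D1, 1 to 2 cytosolic at D3, 2 to 4 cytosolic at normoxic D1 over D0, 0 to 4 cytosolic and 0 to 1 mitochondrial at D3 over D1, and 2 to 5 cytosolic at D7 over D3. At D3 the cytosolic count was 1 without Hypoxia_D3 replicate 1 or Normoxia_D3 replicate 2. Mitochondrial counts under these omissions were 6 to 9 at D7, lowest without Normoxia_D7 replicate 1, 7 to 10 at D11, and 8 to 11 for the difference between D11 and D7. The labels do not say whether same-numbered libraries of hypoxia and normoxia are pairs. The deviations of same-numbered libraries from their group means correlated at 0.15 (D0), -0.12 (D1), 0.08 (D3), 0.01 (D7) and 0.28 (D11). These correlations cannot settle whether the libraries were paired. Under the replicate block, 2 mitochondrial mRNAs passed at normoxic D3 over D1 in place of 1, and no other count of a class moved by over 1.5 times. The lone library left in a group by such omissions is assumed to vary like the others.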
